A study of Mus musculus with 8 samples.

Results

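Transporters of glucose, lactate and ions were compared between leukaemic and normal granulocyte-macrophage progenitors (GMPs) of the mouse. The genes were those of 10 solute carrier families: hexose transporters (Slc2a), bicarbonate transporters (Slc4a), sodium-coupled glucose and inositol transporters (Slc5a), monocarboxylate transporters (Slc16a), sodium-proton exchangers (Slc9a), cation-chloride cotransporters (Slc12a), phosphate carriers (Slc20a), anion transporters (Slc26a) and sodium-calcium exchangers (Slc8a and Slc24a). The rule takes genes by symbol and uses no measured value, although the families were picked with earlier results of these data known, and 84 of the 18193 genes on the arrays met that rule. Of these, 80 encode transporters. The other 4 carry a family's name without being transporters: Slc9a3r1 and Slc9a3r2 are scaffold proteins that bind an exchanger, Slc4a1ap is an adaptor protein and Slc2a4rg-ps is a pseudogene.

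There were 8 Affymetrix arrays. The L-GMP group, 4 arrays lettered A to D, held sorted GMPs from the bone marrow of leukaemic mice with the genotype label HoxA9+Meis1 AML, and the GMP group, 4 arrays lettered A to D, held sorted GMPs from normal mouse bone marrow. Strain, age and the number of animals are not given in the labels, which also do not say whether arrays of a group came from separate mice, so the p-values reflect how far these arrays differ among themselves, and that spread may be technical. Values are log2 RMA intensities, a change is the L-GMP mean less the GMP mean in log2 units, given with its limma standard error (SE), and a gene is said to have risen or fallen where its Benjamini-Hochberg adjusted p over all 18193 genes was below 0.05. In sorted populations, fewer cells of a type and less RNA per cell cannot be told apart.

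Glucose enters blood cells through facilitative hexose transporters, and the lactate and protons made from it by glycolysis leave together through monocarboxylate transporters. Sodium-proton exchangers and sodium-driven bicarbonate transporters raise the pH of the cytosol, anion exchangers lower it, and cation-chloride cotransporters set chloride content and cell volume. Proliferating progenitors and leukaemic cells are known for a high use of glucose. RNA levels do not measure transport.

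The GMP markers Mpo, Elane, Prtn3, Ctsg and Cebpa were bright in both groups (group means 9.98 to 13.63). Of 10 GMP and granule markers, however, 0 rose and 4 fell, with changes of -1.75 (Elane), -0.96 (Kit), -0.84 (Prtn3) and -0.39 (Mpo). Over all genes 4.78% rose and 7.27% fell, the background for every marker count in this paragraph. The marker lists are short, and their counts were not tested against it. On each array, the median over all probe sets lay between 5.24 and 5.49 and the lower quartile between 3.65 and 3.75. L-GMP replicate B stood apart from the other L-GMP arrays on the second principal component of all genes (-36.85 against 2.34 to 15.76). The gap from 3' to 5' Gapdh controls was widest in GMP replicate D, 2.74 against 1.24 to 1.76 on the other 7 arrays. Of 8 monocyte and macrophage markers 6 rose, 1 (Cx3cr1) fell and 1 (Csf1r) did not pass, with a summed level (log2) of 13.33 to 13.81 in L-GMPs and 12.24 to 12.45 in GMPs. Of 8 eosinophil, basophil and mast cell markers 7 fell and 0 rose, with a summed level of 8.95 to 10.32 in L-GMPs and 11.95 to 13.38 in GMPs. The megakaryocyte markers, of which 3 of 5 fell, lay at 7.18 to 7.72 and 8.71 to 10.9, and the erythroid markers, of which 2 of 6 fell, at 7.04 to 7.43 and 7.76 to 8.73. The mature neutrophil markers, of which 2 of 6 fell and 0 rose, lay at 7.66 to 10.21 in L-GMPs and 9.65 to 12.03 in GMPs. The part of these cell types in the transporter results was not tested.

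Of the 84 genes, 8 rose and 4 fell in L-GMPs, 14.3% in all, against 12.1% of all genes (4.78% higher and 7.27% lower), so the share called was near the background. The risen genes were Slc4a8, a sodium-driven bicarbonate transporter, the hexose transporters Slc2a6, Slc2a1, Slc2a9 and Slc2a8, the anion transporter Slc26a11, the phosphate carrier Slc20a1 and the monocarboxylate transporter Slc16a8. The fallen genes were Slc12a2, the sodium-potassium-chloride cotransporter, Slc16a7, Slc5a11 and Slc2a10. Changes ranged from -1.91 (Slc12a2) to 3.27 (Slc4a8) with a median of 0.05, against a median of 0.01 over all genes. The groups did not overlap in 18 of the 84 genes (21.4%; 11 higher and 7 lower), against 18.2% of all genes (8.53% higher and 9.71% lower). Differences of at least 2-fold among called genes were found in 3, Slc4a8, Slc2a6 and Slc12a2, against 3.79% of all genes. Of the 34 genes with a mean above the highest array median 9 were called (26.5%, against 16.3% of all such genes), and of the 50 dimmer ones 3 (6%, against 6.79%).

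The directions of small changes depended on scaling. Centring each array on its median moved the median change of all genes from 0.01 to 0.15, and 12 of the 84 genes were then higher and 1 lower. Quantile normalization gave 11 higher and 4 lower. With replicate B of the L-GMPs and D of the GMPs both left out, 6 rose and 3 fell. The 7 genes Slc4a8, Slc2a6, Slc2a1, Slc2a9, Slc2a8, Slc26a11 and Slc12a2 kept their direction and call without any single array and under both other scalings.

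**Figure D1:**
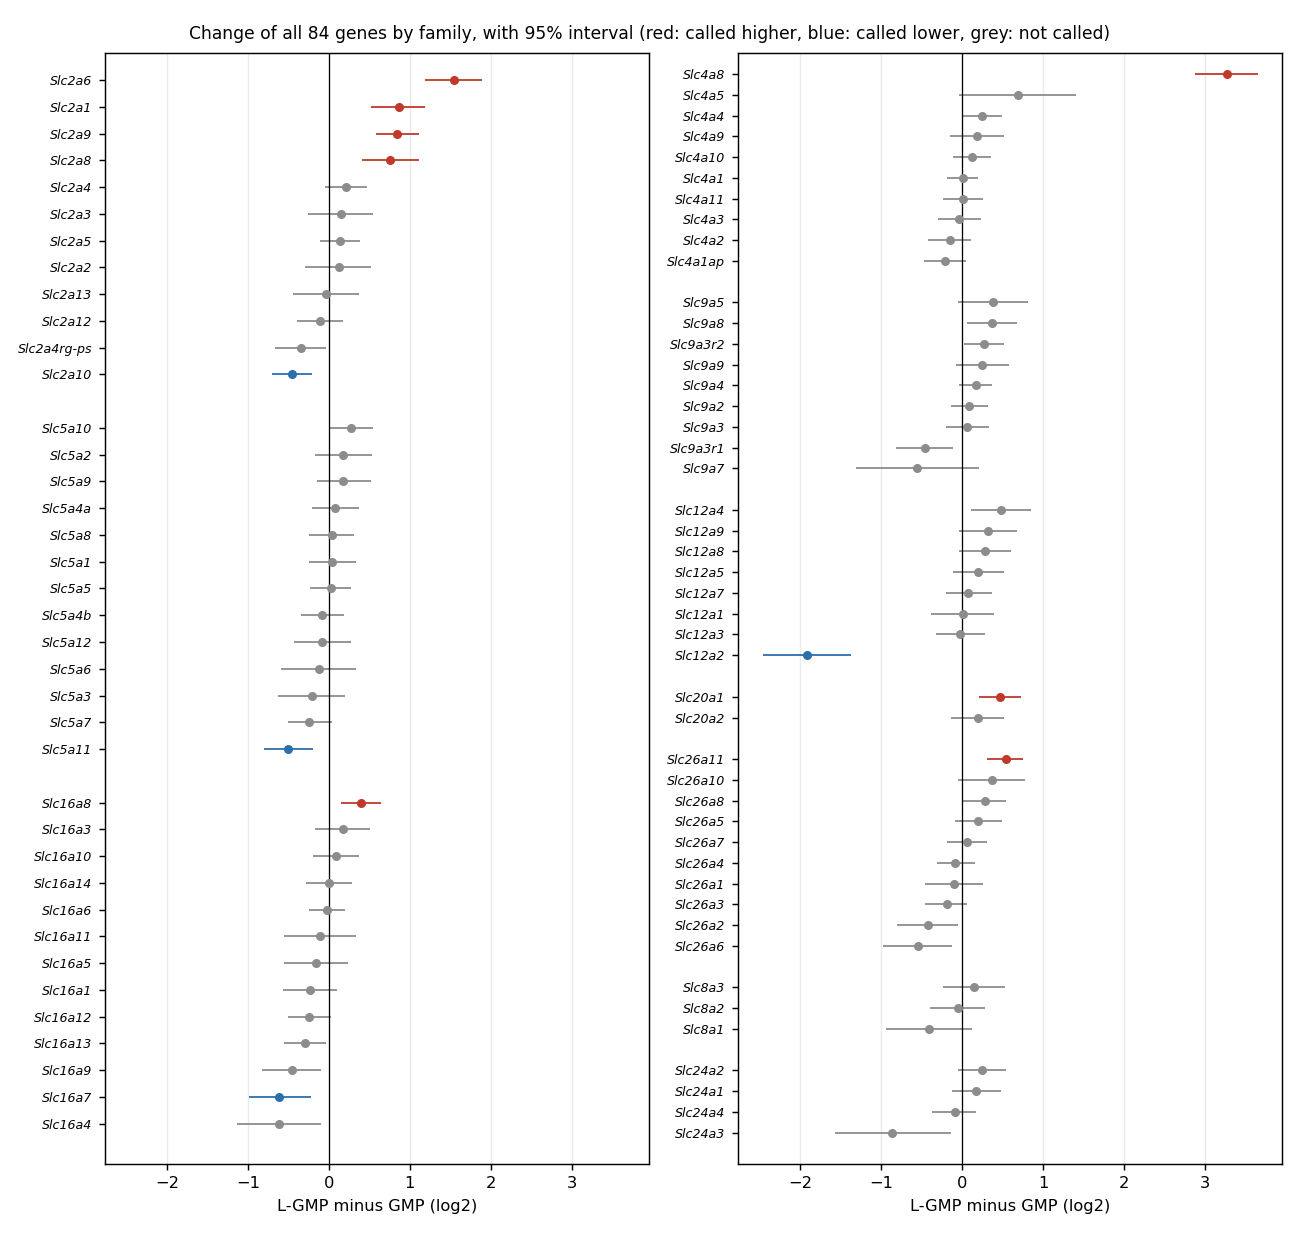
Change of each of the 84 genes (x axis, L-GMP minus GMP, log2) with its 95% interval from the limma fit, grouped by family, left for Slc2a, Slc5a and Slc16a and right for the others. Slc4a8 (3.27) and Slc12a2 (-1.91) lie farthest from 0, and 4 of the 5 called Slc2a genes lie to the right of it.

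RefSeq promoter entries (GRCm38.p6) matched 64 of the 84 genes by symbol. The 250 bases before the start are printed for 4 risen genes: Slc4a8 and Slc2a6 because they rose most, Slc2a1 because it carries basal glucose uptake, and Slc20a1 because its first promoter held E-boxes. Capitals mark matches, on either strand, to CACGTG (the E-box bound by MYC and MAX), ACGTG (the core of the hypoxia response element), TGACAG (the MEIS core), TGATTTAT (a joint PBX and HOXA9 site) or GGGCGG (the GC box).
Slc4a8, chr15:100761497-100761746, plus strand: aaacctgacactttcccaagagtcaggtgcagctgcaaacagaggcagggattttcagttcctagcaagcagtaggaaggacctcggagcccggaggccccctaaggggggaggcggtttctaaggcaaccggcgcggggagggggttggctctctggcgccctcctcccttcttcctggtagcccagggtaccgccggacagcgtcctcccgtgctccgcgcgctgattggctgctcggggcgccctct
Slc2a6, chr2:27027999-27028248, minus strand: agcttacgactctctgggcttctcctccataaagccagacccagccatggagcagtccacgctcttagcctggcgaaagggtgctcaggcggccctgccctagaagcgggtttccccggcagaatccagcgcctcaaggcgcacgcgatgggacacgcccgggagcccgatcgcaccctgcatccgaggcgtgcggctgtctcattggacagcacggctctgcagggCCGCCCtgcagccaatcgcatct
Slc2a1, chr4:119108495-119108744, plus strand: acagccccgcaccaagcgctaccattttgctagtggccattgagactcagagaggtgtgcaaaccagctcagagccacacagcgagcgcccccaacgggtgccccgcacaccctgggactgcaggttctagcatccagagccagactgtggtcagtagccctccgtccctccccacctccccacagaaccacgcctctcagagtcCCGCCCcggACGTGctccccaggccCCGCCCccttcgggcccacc
Slc20a1, chr2:129198523-129198772, plus strand: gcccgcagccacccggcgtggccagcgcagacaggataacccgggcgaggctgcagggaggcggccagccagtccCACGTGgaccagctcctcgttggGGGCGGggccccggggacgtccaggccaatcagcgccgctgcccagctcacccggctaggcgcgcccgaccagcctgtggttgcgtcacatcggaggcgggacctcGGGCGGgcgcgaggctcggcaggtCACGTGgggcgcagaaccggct
The Slc4a8 window held none of these motifs, the Slc2a6 window 1 GC box, the Slc2a1 window 1 ACGTG and 2 GC boxes, and the Slc20a1 window 2 E-boxes and 2 GC boxes. Each E-box also contains ACGTG. Over the 78 promoter windows of the transporter genes, CACGTG occurred in 10 (12.8%, against 6.02% of 32851 RefSeq promoter windows of 250 bases), ACGTG in 12 (15.4% against 16.6%), TGACAG in 8 (10.3% against 15.9%), TGATTTAT in 0 (against 0.837%) and GGGCGG in 35 (44.9% against 32.7%). Among the called genes with an entry, TGACAG was found only in the window of Slc2a10, which fell. A match is a string of letters and not a site shown to be bound.

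Of 11 transporters of the Slc2a family 4 rose and 1 fell, 45.5% in all against 12.1% of all genes (4.78% higher and 7.27% lower), with a median change of 0.15, and 6 did not pass. With so few genes this share is a description and was not tested. Slc2a6 encodes GLUT6, a transporter of lysosomal membranes in macrophages. It read 7.01, 7.09, 7.75 and 7.35 in L-GMP A to D and 5.66, 5.69, 5.76 and 5.93 in GMP A to D. Every L-GMP array lay above every GMP array, and the rise was 1.54 (SE 0.16, 2.91-fold, adjusted p = 0.00012). Without any single array the rise was 1.39 to 1.64.

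Slc2a1 encodes GLUT1, the main carrier of basal glucose uptake in blood cells. Its brightest probe set read 10.45, 10.01, 10.35 and 10.63 in L-GMPs and 9.80, 9.33, 9.46 and 9.41 in GMPs, A to D in each. The groups did not overlap, the lowest L-GMP array being replicate B and the highest GMP array replicate A. The rise was 0.86 (SE 0.15, 1.81-fold, adjusted p = 0.00447). All 3 Slc2a1 probe sets rose alike, by 0.86 to 0.88, each without overlap, and without L-GMP replicate B the rise was 0.97.

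Slc2a9, which encodes the urate carrier GLUT9, read 9.51, 9.53, 9.57 and 9.60 in L-GMPs and 8.99, 8.47, 8.76 and 8.62 in GMPs. The L-GMP arrays lay close together (SD 0.04) and above all GMP arrays (SD 0.22). Its rise was 0.84 (SE 0.12, 1.79-fold, adjusted p = 0.00117), while its dimmer probe set changed by 0.27 with overlapping groups (adjusted p = 0.51 over all probe sets). Slc2a8 encodes GLUT8, a carrier of intracellular membranes, and rose by 0.76 (SE 0.16, 1.70-fold, adjusted p = 0.0109). It read 6.80, 7.03, 6.52 and 6.43 in L-GMPs and 6.26, 5.82, 5.77 and 5.86 in GMPs, again without overlap. With B of the L-GMPs and D of the GMPs left out, its adjusted p was 0.0546.

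Slc2a10, the gene of GLUT10 of the secretory pathway, was the fallen member. Its brightest probe set read 4.11, 4.22, 4.0 and 3.83 in L-GMPs and 4.43, 4.53, 4.60 and 4.41 in GMPs, below the array median on every array. The gene fell by 0.45 (SE 0.11, adjusted p = 0.023), and the other probe set fell by 1.26 (adjusted p = 0.00446 over all probe sets), with L-GMP arrays at 2.76 to 3.16 and GMP arrays at 3.75 to 4.93. Those L-GMP values are under each array's lower quartile, so the size of that fall is uncertain. Neither probe set overlapped between the groups. The brightest lost its call when C or D of the L-GMPs, or B or C of the GMPs, was left out (adjusted p 0.053 to 0.0684) and under median centring (0.0755). Slc2a3, which encodes the high-affinity glucose carrier GLUT3, read 7.78, 8.37, 7.59 and 7.46 in L-GMPs and 7.62, 7.62, 7.88 and 7.50 in GMPs. The groups overlapped, L-GMP replicate B being the highest array, and the change was 0.15 (95% interval -0.26 to 0.55, adjusted p = 0.667) or -0.04 without that array. Slc2a4, the insulin-regulated carrier, and Slc2a2, Slc2a5, Slc2a12 and Slc2a13 did not pass either, with changes of -0.11 to 0.21.

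**Figure D2:**
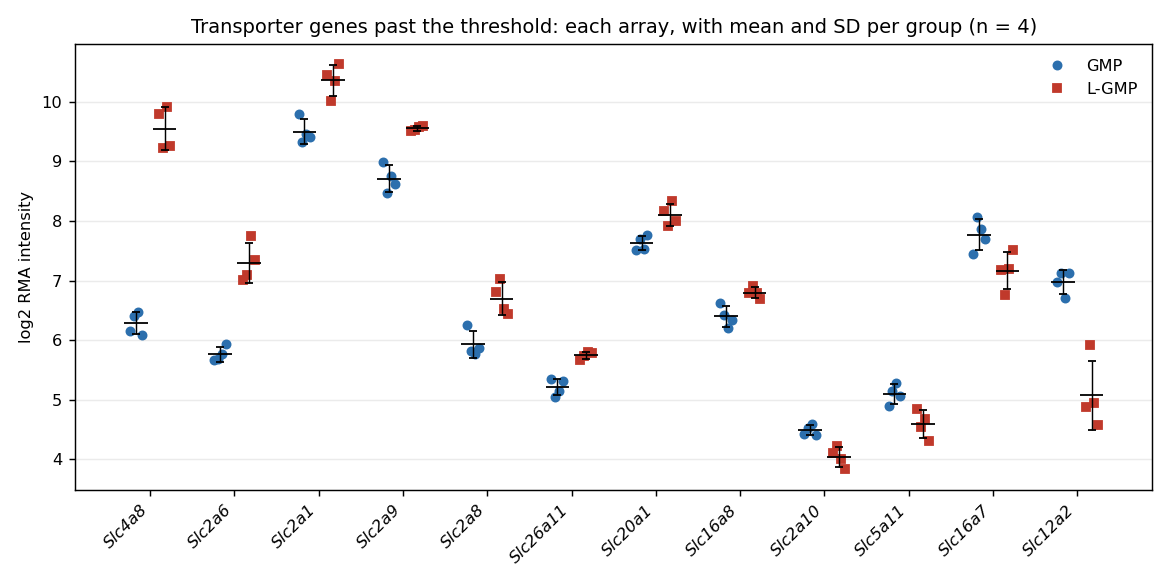
Log2 RMA intensity (y axis) of the 12 transporter genes past the threshold on each of the 4 GMP arrays (blue circles) and 4 L-GMP arrays (red squares), with the mean and SD of each group, ordered from the largest rise to the largest fall. The groups are separate for 11 genes and overlap for Slc16a7, where L-GMP replicate D (7.51) lies above GMP replicate A (7.45). Over all genes, the groups did not overlap in 18.2%. The 12 genes were picked by their difference on these same arrays, so their separation is no further evidence.

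Among 13 sodium-coupled transporters of the Slc5a family 0 rose and 1 fell by limma (7.69%, against 12.1% of all genes), and 2 had an unadjusted p under 0.05, as had 26.2% of all genes. Slc5a11, a myo-inositol transporter, read 4.85, 4.54, 4.68 and 4.30 in L-GMPs and 4.89, 5.15, 5.28 and 5.06 in GMPs, below the array median throughout, and the highest L-GMP array lay just under the lowest GMP array. It fell by 0.50 (SE 0.14, adjusted p = 0.0367). That call was lost without L-GMP replicate B, C or D or GMP replicate B, C or D (adjusted p 0.0601 to 0.103) and under both other scalings (0.0715 and 0.0857). Slc5a3, also an inositol transporter, had a change of -0.21 (adjusted p = 0.521) in its brightest probe set. A second Slc5a3 probe set, chosen after its values were seen, read 5.09, 5.58, 5.31 and 5.42 in L-GMPs and 6.07, 6.49, 6.69 and 6.72 in GMPs and fell by 1.14 (SE 0.16, adjusted p = 0.00147 over all probe sets). The third changed by -0.22 with overlapping groups. Slc5a3 lies within the locus of Mrps6, and the file does not show which transcript each probe set reads.

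Slc5a2 encodes the kidney glucose transporter SGLT2. Its probe sets were bright in both groups, the brightest at 9.24 ± 0.17 in L-GMPs and 9.06 ± 0.31 in GMPs (SD, n = 4), with a change of 0.18 (95% interval -0.17 to 0.53, adjusted p = 0.513). The dimmer one had a change of 0.32 without overlap (adjusted p = 0.0731 over all probe sets). The gene overlaps Rusf1 in the RefSeq annotation. The suffix of the brightest Slc5a2 probe set marks probes that match several transcripts, so its level cannot be assigned to Slc5a2. The dimmer one lacks that suffix, and which transcript it reads is not shown. The brightest probe sets of Slc2a3, Slc2a10 and Cab39l carry the same suffix, so the same caution holds for them. No other Slc5a gene passed, with changes of -0.24 to 0.27.

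Of 13 monocarboxylate transporters (Slc16a) 1 rose and 1 fell, 15.4% in all and near the 12.1% of all genes, with a median change of -0.16. The lactate carriers MCT1 and MCT4 are encoded by Slc16a1 and Slc16a3. Slc16a1 read 9.88, 10.19, 9.81 and 10.35 in L-GMPs and 10.04, 10.48, 10.18 and 10.47 in GMPs, with overlap and a change of -0.23 (95% interval -0.57 to 0.10, adjusted p = 0.368). Slc16a3 read 7.02, 7.19, 6.97 and 6.50 in L-GMPs and 6.99, 6.71, 6.62 and 6.68 in GMPs, with a change of 0.17 (95% interval -0.17 to 0.51, adjusted p = 0.528). These intervals leave room for differences of up to 0.57 and 0.51 on the log2 scale, so equal levels are not shown.

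Slc16a7 encodes MCT2, a high-affinity carrier of pyruvate and lactate. It read 7.18, 6.76, 7.20 and 7.51 in L-GMPs and 7.45, 8.06, 7.87 and 7.70 in GMPs and fell by 0.61 (SE 0.17, 1.52-fold, adjusted p = 0.0471), with groups that overlapped by 1 array. The call was lost when A, B or C of the L-GMPs or B, C or D of the GMPs was left out (adjusted p 0.0867 to 0.133), and after median centring (0.0709). Slc16a8, whose product MCT3 is known from the retinal pigment epithelium, read 6.79, 6.91, 6.79 and 6.69 in L-GMPs and 6.62, 6.42, 6.21 and 6.34 in GMPs. It rose by 0.40 (SE 0.11, 1.32-fold, adjusted p = 0.0425) without overlap, a call lost without any single array other than GMP replicate A (0.053 to 0.111) and in the mean of its probe sets (0.148). Slc16a6, at 8.55 ± 0.13 and 8.57 ± 0.07 (SD, n = 4), had a change of -0.02 (95% interval -0.25 to 0.20, adjusted p = 0.914). Slc16a10, an aromatic amino acid carrier of the same family, had a change of 0.09.

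Of 35 measured genes of glycolysis and lactate metabolism 2 rose and 1 fell (8.57%, against 12.1% of all genes), with a median change of -0.03. Ldhb encodes the heart-type subunit of lactate dehydrogenase, whose tetramers are known to favour the conversion of lactate to pyruvate. Its brightest probe set read 6.40, 6.03, 6.07 and 6.20 in L-GMPs and 10.13, 9.89, 10.26 and 9.84 in GMPs. The groups lay far apart, and the change was -3.86 (SE 0.13, 14.5-fold lower, adjusted p = 2.52e-08). All 4 Ldhb probe sets fell, the others with changes of -4.90, -4.95 and -7.14, the last with L-GMP arrays at 3.01 to 3.11, below the lower quartile of every array, so the size of its fall is uncertain.

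Ldha, the muscle-type subunit that favours lactate production, read 12.19, 12.23, 12.06 and 11.95 in L-GMPs and 12.11, 12.31, 12.02 and 12.58 in GMPs, with a change of -0.15 (adjusted p = 0.53). The groups overlapped. The hexokinases Hk1 and Hk2 had changes of -0.07 and -0.11 (adjusted p = 0.843 and 0.604), both turning positive after median centring (0.07 and 0.03), and the pyruvate kinase gene Pkm -0.03 (adjusted p = 0.897), or 0.11 after centring. The risen genes were Eno3, the muscle enolase, by 0.61 (SE 0.14, adjusted p = 0.0171), and Tigar, a fructose bisphosphatase that p53 induces, by 0.50 (SE 0.14, adjusted p = 0.0405). Tigar lost its call when any single array but B or C of the L-GMPs was left out (adjusted p 0.0549 to 0.104).

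Chaperones that carry the monocarboxylate transporters to the membrane did not all behave alike. Bsg (basigin) and Emb (embigin) each had a change of 0.01 (adjusted p = 0.974 and 0.983), and the sign of both turned under quantile normalization. Emb read 11.54, 10.98, 11.50 and 11.41 in L-GMPs and 11.30 to 11.38 in GMPs. Nptn (neuroplastin), a relative of basigin, read 9.90, 9.70, 10.13 and 9.84 in L-GMPs and 9.03, 9.12, 8.88 and 9.42 in GMPs. It rose by 0.78 (SE 0.14, 1.72-fold, adjusted p = 0.00454) without overlap, and its dimmer probe set rose by 0.52 (adjusted p = 0.0186 over all probe sets).

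**Figure D3:**
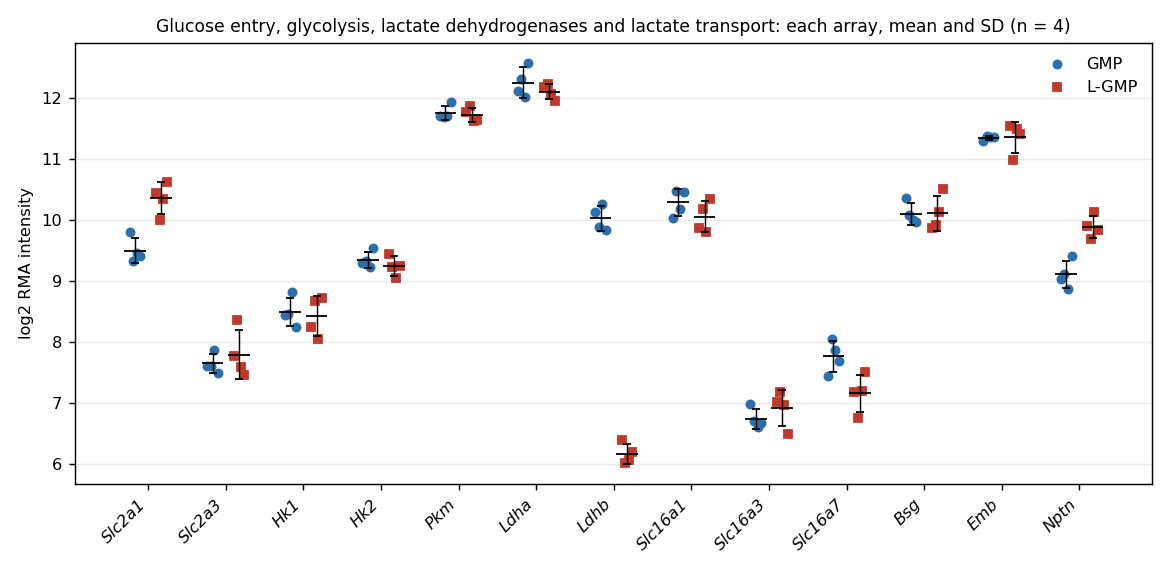
Log2 RMA intensity (y axis) on each array for glucose carriers, hexokinases, pyruvate kinase, lactate dehydrogenases, lactate carriers and their chaperones, in GMPs (blue circles) and L-GMPs (red squares), with mean and SD per group. Ldhb separates the groups most (10.03 against 6.18), Slc2a1 and Nptn lie higher in L-GMPs, and Ldha, Slc16a1 and Slc16a3 overlap.

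Among regulators of pH, Slc4a8 changed most. It encodes a sodium-driven exchanger that brings in bicarbonate in return for chloride and so extrudes acid. Its brightest probe set read 9.80, 9.22, 9.92 and 9.25 in L-GMPs and 6.16, 6.40, 6.48 and 6.09 in GMPs. The groups lay far apart, and the rise was 3.27 (SE 0.18, 9.61-fold, adjusted p = 7.58e-07). Of its 5 probe sets this was the only one called, beside 10.9% of all 45037 probe sets. The others had means over all arrays of at most 4.07, changes of 0.10 to 0.15 and overlapping groups, and the mean of the 5 probe sets rose by 0.76 (adjusted p = 0.000442). The file does not show which part of the transcript each probe set reads.

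The other 8 bicarbonate transporters did not pass, so that 1 of 9 was called (11.1%, against 12.1% of all genes). Slc4a2, an anion exchanger of most cells that exports bicarbonate, had a change of -0.15 (95% interval -0.42 to 0.11, adjusted p = 0.464), with L-GMP replicate B lowest at 6.19. Slc4a1, band 3 of the red cell, stood at 4.46 ± 0.04 in L-GMPs and 4.46 ± 0.07 in GMPs (SD, n = 4), below the median of every array. Its other probe sets, chosen after their values were seen, were highest in GMP replicate A (5.13 and 4.35), the array with the highest summed level of erythroid markers (8.73). Slc4a1ap, the adaptor, had a change of -0.21 (adjusted p = 0.301).

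Sodium-proton exchangers of the Slc9a family gave 0 calls by limma among 7 measured, against 12.1% of all genes. Of the 7, 1 had an unadjusted p under 0.05, against 26.2% of all genes. With so few genes these counts are a description and were not tested. Changes of the 7 exchangers ranged from -0.55 (Slc9a7) to 0.38 (Slc9a5). The exchanger's scaffold Slc9a3r1 (NHERF1), which links membrane proteins to ezrin, was lower in L-GMPs in all 3 of its probe sets without overlap. The brightest read 9.66, 8.98, 9.73 and 9.60 in L-GMPs and 9.92, 9.96, 9.89 and 10.05 in GMPs, with a change of -0.46 (adjusted p = 0.0902), or -0.29 (adjusted p = 0.109) without L-GMP replicate B, the lowest array. The mean of the 3 probe sets fell by 0.47 (adjusted p = 0.0145).

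Probe sets of Slc9a3r2 (NHERF2), chosen after their values were seen, disagreed most among the 84 genes other than those of Slc4a8. The brightest of 6 had a change of 0.27 (adjusted p = 0.153). A dimmer one read 4.04, 4.47, 4.24 and 3.77 in L-GMPs and 5.66, 6.03, 6.11 and 6.28 in GMPs and fell by 1.89 (SE 0.17, adjusted p = 6.91e-05 over all probe sets). Another fell by 1.72 (adjusted p = 0.00029), an uncertain size because its L-GMP arrays lay below the lower quartile (2.88 to 3.55), and the other 3 changed by -0.34 to -0.05 with overlapping groups. Over the 48 genes with several probe sets, 0 had probe sets called in opposite directions.

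**Figure D4:**
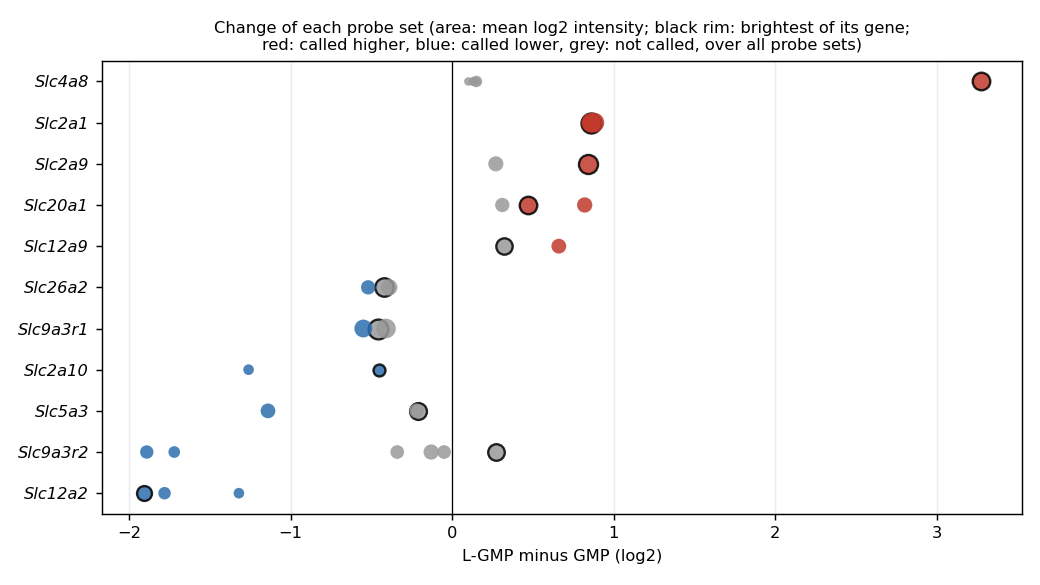
Change (x axis, L-GMP minus GMP, log2) of each probe set of 11 genes with several probe sets of which at least 1 was called, with area showing the mean log2 intensity, a black rim the brightest probe set, and red, blue and grey those higher, lower and not called. Those of Slc2a1 lie close together, while those of Slc4a8 and Slc9a3r2 spread from 0.10 to 3.27 and from -1.89 to 0.27.

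Slc12a2 (NKCC1), which loads cells with sodium, potassium and chloride and restores volume after shrinkage, showed the largest fall. It read 4.88, 5.91, 4.94 and 4.57 in L-GMPs and 6.98, 7.13, 6.70 and 7.12 in GMPs. L-GMP replicate B was the highest of its group and still lay below every GMP array. The change was -1.91 (SE 0.25, 3.76-fold lower, adjusted p = 0.000597), or -2.19 without that array. All 3 probe sets fell, the dimmer ones with changes of -1.78 and -1.32 (adjusted p = 7.6e-05 and 0.0105 over all probe sets), each without overlap. The last read 2.56 to 3.34 in L-GMPs, below the lower quartile of every array, so the size of its fall is uncertain.

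None of the other 7 Slc12a genes passed by limma, with changes of -0.02 to 0.48, and 1 had an unadjusted p under 0.05. Of all 8 Slc12a genes 1 was called by limma (12.5%, against 12.1% of all genes). An unadjusted p under 0.05 was found in 2 of the 8, against 26.2% of all genes. Slc12a9 had a change of 0.32 (adjusted p = 0.235) in its brightest probe set, and its second probe set, named for its values, rose by 0.66 (adjusted p = 0.0171 over all probe sets). Kinases of the WNK cascade phosphorylate these cotransporters and so switch NKCC1 on. In that cascade Stk39 (SPAK) read 3.59, 3.64, 3.52 and 3.89 in L-GMPs and 4.10, 4.23, 4.31 and 4.44 in GMPs and fell by 0.61 (SE 0.12, adjusted p = 0.00711), while its other probe sets overlapped. L-GMP arrays A to C lay below their lower quartiles, so the size of the Stk39 fall is uncertain. Cab39l, the scaffold of Stk39, fell by 0.51 (SE 0.11, adjusted p = 0.015), or by 0.37 after median centring (adjusted p = 0.0679). Wnk1 had a change of -0.23 (adjusted p = 0.177) and the related kinase Oxsr1 of -0.10 (adjusted p = 0.702).

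Phosphate enters through Slc20a1 and Slc20a2 (PiT1 and PiT2). Slc20a1 read 8.16, 7.91, 8.33 and 8.0 in L-GMPs and 7.52, 7.70, 7.53 and 7.77 in GMPs and rose by 0.47 (SE 0.12, 1.38-fold, adjusted p = 0.0272), with no overlap. A second probe set rose by 0.82 (adjusted p = 0.0255 over all probe sets), and the third changed by 0.31. Leaving out A or C of the L-GMPs, or any GMP array but D, ended the call (adjusted p 0.0528 to 0.0783). Slc20a2 had a change of 0.20 (95% interval -0.13 to 0.52, adjusted p = 0.436). The phosphate exporter Xpr1 read 8.10, 8.21, 8.03 and 8.22 in L-GMPs and 8.83, 8.48, 8.54 and 8.73 in GMPs and fell by 0.50 (SE 0.11, adjusted p = 0.0139), or by 0.36 after median centring (adjusted p = 0.0667). All 7 Xpr1 probe sets had changes below 0, of -0.65 to -0.12.

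Slc26a11, an anion transporter of the sulfate family, rose by 0.54 (SE 0.10, 1.45-fold, adjusted p = 0.00645). It read 5.67, 5.73, 5.80 and 5.79 in L-GMPs and 5.34, 5.05, 5.14 and 5.32 in GMPs, with no overlap. The gene overlaps Sgsh, the gene of a lysosomal sulfatase, in the RefSeq annotation. Slc26a2, the main sulfate carrier, read 8.41, 8.39, 8.28 and 8.64 in L-GMPs and 8.33, 9.11, 9.05 and 8.94 in GMPs, with a change of -0.42 (adjusted p = 0.137). GMP replicate A was the low array, and without it the change was -0.60 (adjusted p = 0.00966). The dimmer Slc26a2 probe sets, named for their values, changed by -0.39 and -0.52 without overlap (adjusted p = 0.067 and 0.00988 over all probe sets). The other Slc26a genes had changes of -0.54 to 0.37, none passed by limma, and 2 had an unadjusted p under 0.05. Of all 10 Slc26a genes 1 was called by limma (10%, against 12.1% of all genes). An unadjusted p under 0.05 was found in 4 of the 10, against 26.2% of all genes.

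Sodium-calcium exchangers gave 0 calls by limma, against 12.1% of all genes. An unadjusted p under 0.05 was found in 0 of 3 Slc8a and 1 of 4 Slc24a genes, against 26.2% of all genes. With so few genes these counts are a description and were not tested. The largest change among these exchangers, in Slc24a3, was -0.86 (95% interval -1.57 to -0.14, adjusted p = 0.117). Its L-GMP arrays read 4.86, 6.54, 5.13 and 5.78 and its GMP arrays 6.51, 6.87, 6.26 and 6.09, so that only replicate B of L-GMPs reached the GMP range.

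Of 28 measured partners and regulators 2 rose and 5 fell (25%, against 12.1% of all genes). This share was not tested. Of the 28, 21 lay above the median on every array, and 16.3% of all genes with a mean above the highest array median were called. After median centring 4 were higher and 2 lower. Besides the partners already described, Atp6v1b2, a subunit of the proton pump of lysosomes, rose by 0.53 (SE 0.11, adjusted p = 0.00854). Atp1b2 encodes a subunit of the sodium pump, which supplies the gradient for the sodium-driven carriers among these genes. It read 4.44, 4.31, 4.48 and 4.16 in L-GMPs and 5.66, 5.52, 5.58 and 5.14 in GMPs and fell by 1.13 (SE 0.13, 2.18-fold, adjusted p = 0.000316). The other Atp1b2 probe set changed by -0.41 with overlapping groups (adjusted p = 0.156 over all probe sets). The sodium pump subunits Atp1b1 and Atp1b3 had changes of -0.22 and -0.05 (adjusted p = 0.732 and 0.769). Nedd4l, a ubiquitin ligase that limits sodium transport, fell by 0.34 (SE 0.10, adjusted p = 0.0425), a call lost without any single array other than GMP replicate C (adjusted p 0.0547 to 0.114) and under both other scalings (0.108 and 0.188).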

How the data were processed

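Total RNA of sorted mouse bone marrow cells was measured on 8 arrays, 4 per group, with groups taken from the sample titles. Per the submitters' processing notes the authors used RMA; its version was not given in the sources used here. The authors deposited linear intensities (3.54 to 29746.73), judging by the values, and 0 columns were unused. Per the labels, RNA was labelled by a whole transcript sense method, while the probe sets are those of a 3' expression array, and this could not be settled. No detection call was used. Precision is limited by having 4 arrays per group.

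Log2 was taken, 64 control probe sets of 45101 were left out, and probe sets with exactly 1 symbol (34945, against 932 with several and 9160 with none) were reduced to the brightest per gene by mean over all arrays (18193 genes). Levels of different probe sets are not comparable. The test was limma 3.58.1 (R 4.3.3), lmFit and eBayes on group, 2-sided, adjusted by Benjamini-Hochberg over all genes at 0.05. Adjusted p-values "over all probe sets" come from a fit of 45037 rows. The fit was tested on simulated data. Named were all called transporter genes, the 10 brightest, 11 genes picked by role (3 of them not analysed here), and in the glycolysis and partner lists up to 5 called genes per direction plus Hk1, Hk2, Ldha, Pkm, Bsg and Emb, with additions marked as such or given by their values alone. The transporter genes and lists were chosen with earlier results of these data known. Alternatives were 2 scalings, 2 filters on dim genes, 2 treatments of probe sets, a trended robust prior, array weights, a replicate block, limma's treat at a fold of 1.5, and arrays left out. The main fit did not pair samples by replicate letter, and the correlations between arrays of the same letter, given below, cannot exclude pairing.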

Additional observations from a re-analysis of the deposited data

Results flagged for a closer look

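Among 38 named genes, each checked in both groups of 4 arrays, 2 of 76 group values had an array far from the other 3 of its group, where chance gives about 1 in 20. GMP replicate A read 6.74 for Slc4a2, against 6.63 to 6.64 on the other GMP arrays. GMP replicate D read 11.93 for Pkm, against 11.69 to 11.71. Neither gene was called, and GMP replicate D is the array with the largest Gapdh 3' to 5' difference (2.74).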

How the results depend on the processing

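Transporter genes higher in L-GMPs numbered 8, 2 under treat at a fold of 1.5 and 6 to 9 with an array left out. Those lower numbered 4, against 1 after median centring, 2 without the dimmest 50% of genes, 8 in the mean of probe sets, 8 with array weights, 1 under treat, 7 with every probe set and 1 to 7 with an array left out. The alternative with every probe set reads each gene from its lowest-p probe set, so its counts favour calls. With the replicate block, 6 were higher and 2 lower, Slc16a7, Slc16a8, Slc20a1 and Slc5a11 losing their calls. Deviations of arrays with the same letter correlated at -0.0669 to 0.112, and 1 of 4 L-GMP arrays correlated best with its own letter. Glycolysis and lactate genes higher numbered 2, against 4 after median centring, in the mean of probe sets and with every probe set, 1 with the replicate block, 0 under treat, and 1 to 3 with arrays left out. Those lower numbered 1, against 2 with array weights, 3 with every probe set and 1 to 2 with arrays left out. Partner genes higher numbered 2, against 4 after median centring, 1 in the mean of probe sets, 0 under treat and 2 to 3 with arrays left out. Those lower numbered 5, against 2 after median centring, 3 without the dimmest 50% of genes, 3 in the mean of probe sets, 1 under treat and 3 to 5 with arrays left out. Of genes named though not called, some changed sign. Median centring gave 0.12 for Slc16a6, 0.07 for Hk1, 0.03 for Hk2 and 0.11 for Pkm. Quantile normalization gave -0.04 for Bsg and -0.03 for Emb, which was at -0.08 in the mean of probe sets and -0.23 in its lowest-p probe set. With arrays left out, changes ranged from -0.06 to 0.03 for Slc16a6, -0.09 to 0.26 for Slc2a3, -0.24 to 0.05 for Hk1, -0.08 to 0.03 for Pkm, -0.12 to 0.10 for Bsg and -0.05 to 0.14 for Emb. The cause of these differences was not tested. By design treat asks for a larger change, and leaving out arrays leaves fewer samples. Calls did not always drop with fewer arrays: without GMP replicate A, 2388 of all genes were called, against 2193 in the main fit. Slc4a8, Slc2a6, Slc12a2, Ldhb and Atp1b2 kept direction and call under every alternative run. For Slc4a8 and Atp1b2 this does not extend to their other probe sets, which were not called.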
